A study of Mus musculus with 6 samples.

Results

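The regions described here are the stretches of mouse chromosome 6 that were listed after Meg3 RNA was pulled down from the chromatin of an insulinoma line that overexpresses it. They are all the entries of the deposited list that lie on chromosome 6, of any width, and they number 564 of 9010 (9005 of them on nuclear chromosomes). The 1 Mb window from 17 to 18 Mb, which holds the receptor gene Met, contained 6 of them. It was compared with the rest of the chromosome. The rule that picks the members uses position alone, but the chromosome and the window were proposed with earlier results of these data known.

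Chromatin isolation by RNA purification (ChIRP) captures one RNA with biotinylated antisense DNA probes and sequences the DNA cross-linked to it. It was applied to MIN6-4N cells, which derive from an insulin-producing tumour of mouse islet beta cells. They were transfected with the pcDNA3.1 plasmid, either empty (clone V3) or carrying Meg3 (clone M5), and fixed with 1% glutaraldehyde. G418 was used at 750 µg/ml to select both clones and at 500 µg/ml during their expansion. Per the labels, the odd-numbered and the even-numbered probe pools were used separately on each clone beside an input without probe, so there were 6 libraries, 3 per clone and 1 per group. The list carries the code of the Meg3 clone, which is a single picked clone, and the word unique. The sources used here do not say if that word means regions not called in the vector clone or reads placed uniquely, so every count below may or may not be filtered against the vector clone. It gives positions on the mm9 build and no height, fold or p-value, and the vector libraries were not analysed here. No value below therefore has a spread between replicates. The intervals given are 95% intervals for counting error, and they treat listed regions as independent of each other.

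Meg3 is a maternally expressed long noncoding RNA of an imprinted locus on chromosome 12, and it is regarded as a tumour suppressor in endocrine tumours. A long noncoding RNA can be found at its own locus and, in trans, at other chromosomes, and ChIRP reads both. Met is the receptor tyrosine kinase for hepatocyte growth factor. In pancreatic islets this receptor is known for promoting the growth and survival of beta cells. In the RefSeq gene order of GRCm38.p6, Met (gene ID 17295) follows Mdfic, Tfec, Tes, Cav2 and Cav1 and precedes Capza2, St7, Wnt2, Asz1 and Cftr. Cav1 and Cav2 encode caveolins, the coat proteins of small membrane pits, and Capza2 encodes a subunit of the actin capping protein. Wnt2 is a secreted Wnt ligand and Cftr the chloride channel mutated in cystic fibrosis. That order comes from another build than the list. Positions of these genes on mm9 were not used here, so none of the 6 regions is assigned to Met or to a neighbour of it.

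The 6 regions of the Met window were of very uneven width. The first lay at chr6:17045572-17045953 and was 382 bp wide, and 89.7% of the regions of the chromosome were as wide or narrower. The second, at chr6:17297380-17297429, spanned 50 bp, which is the read length of the libraries. The third, at chr6:17508848-17508888, spanned 41 bp and was the narrowest of all 564 regions of chromosome 6. These narrow regions were followed by wider ones. The fourth region, at chr6:17513574-17513696, was 123 bp wide. The fifth, at chr6:17566471-17566819, was 349 bp wide. The last, at chr6:17974482-17974914, was 433 bp wide and ranked 43 of 564 by width. The window thus had 3 regions of 349 bp or more, at its edges and just past its middle, and 2 of at most 50 bp between the first of these and the next.

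The regions of 41, 123 and 349 bp formed a small group near the centre of the window. They fell within 57972 bp, and the first 2 of them were 4685 bp apart. Of the 1465 windows of 100 kb on a fixed grid along chromosome 6, 15 (1.02%) held 3 or more regions, against 1.21% on the other autosomes, and this group filled 1 of the 15. Another of the 15 lay just before the Met window, with 3 regions from chr6:16720517-16763855. From the last region of that group, 281716 bp without a region led to the first region of the Met window. After the last region of the Met window, 445108 bp were free up to chr6:18420023-18420199. The other distances inside the window were 251426, 211418, 52774 and 407662 bp, against a median of 149201 bp between neighbours on the whole chromosome (quartiles 64457 and 346322 bp).

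**Figure D1:**
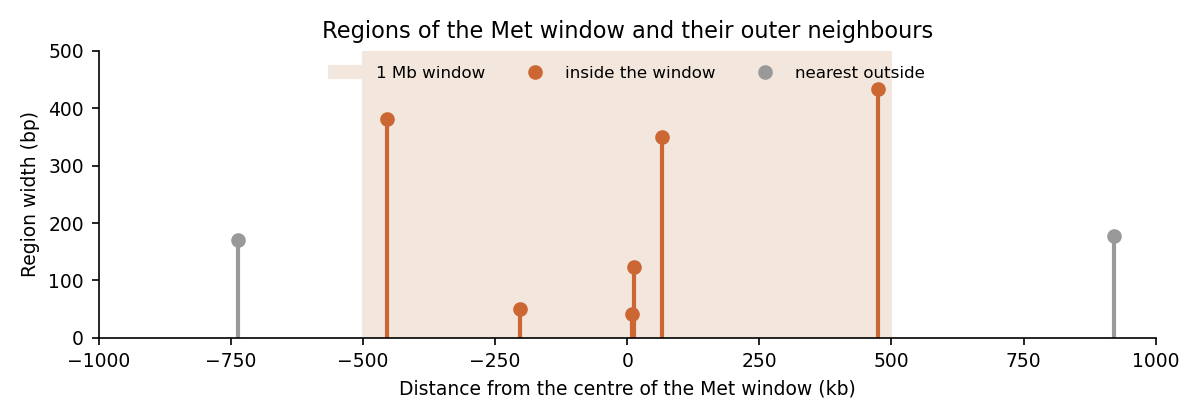
Width of each region (vertical, bp) against the distance of its midpoint from the centre of the 17 to 18 Mb window (horizontal, kb), with the 6 regions of the window in orange and the nearest region on each side in grey. The regions of 41, 123 and 349 bp stand together just past the centre, and the widest, of 433 bp, stands near the distal edge.

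The density of the Met window was above the average of the chromosome, but not by more than counting error. With 6 regions per Mb (95% exact Poisson interval 2.20 to 13.1), it held 1.56 times the density of the rest of chromosome 6 (interval of the ratio 0.574 to 3.40), where 558 regions gave 3.84 per Mb (3.53 to 4.17). The interval of the ratio includes 1. Windows as full as this were common. Of the 147 windows of 1 Mb on chromosome 6, 24 held more regions, 9 held 6, the Met window among them, and 114 held fewer. In all, 33 windows (22.4%) held 6 or more, close to the 22.8% of windows of all autosomes that did. Measured around each region instead of on a grid, the members of the Met window had between 4 and 6 other regions within 500 kb (median 5), inside the quartiles of all members of chromosome 6 (3 and 7, median 4).

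The ratio was lower in wider windows. In a window of 2 Mb with the same centre the density was 1.44 times that of the rest (0.717 to 2.57), from 11 regions. In a window of 5 Mb it was 1.04 times (0.635 to 1.61), from 20 regions. The interval from 16 to 17 Mb held 6 regions as well, and that from 18 to 19 Mb held 4. The windows from 15 to 16 Mb and from 19 to 20 Mb held 2 each. The regions of the Met window covered 0.138% of it, against 0.0756% for the rest of chromosome 6. Their median width was 236 bp (range 41 to 433, 6 regions), against 162.5 bp elsewhere on the chromosome (range 42 to 659), and with 6 values the 95% order-statistic interval of the median is the whole range.

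**Figure D2:**
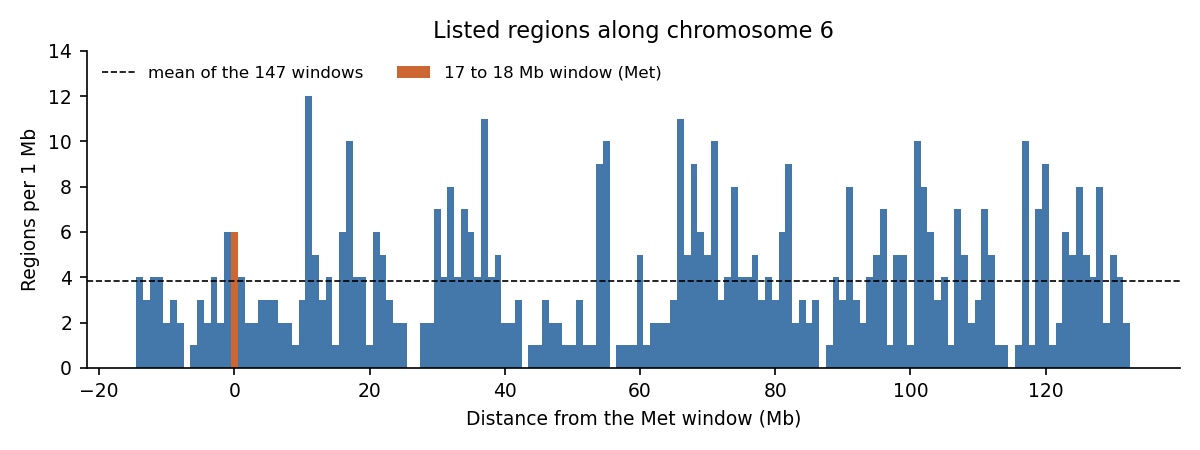
Number of regions in each 1 Mb window of chromosome 6 (vertical) against the distance of the window from the Met window (horizontal, Mb), with the Met window in orange and the mean of the 147 windows as a dashed line. The Met window holds 6 regions and 8 other windows stand at 10 or more, up to 12.

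Along the chromosome, the regions came in dense and sparse stretches. The fullest 1 Mb window, from 28 to 29 Mb, held 12 regions with widths of 76 to 473 bp. It lies 11 Mb distal to the Met window. The windows from 54 to 55 Mb and from 83 to 84 Mb held 11 each. The windows starting at 34, 72, 88, 118 and 134 Mb held 10 each, so that 8 windows (5.44%) reached 10 regions, against 4.96% of windows of all autosomes. In the window from 83 to 84 Mb, 4 regions lay within 79610 bp (chr6:83204197-83283806). The window from 134 to 135 Mb also held 4 regions close together, within 86466 bp (chr6:134013002-134099467). These were the 2 fullest windows of 100 kb on the chromosome. The median width in the 8 fullest windows was between 126.5 and 196.5 bp. In 7 of the 8 it was below the 162.5 bp of the whole chromosome. Crowded and sparse windows did not differ in width beyond the intervals. The median was 141.5 bp (127 to 177) in windows of 9 or more regions and 162 bp (143 to 199) in windows of 1 or 2.

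**Figure D3:**
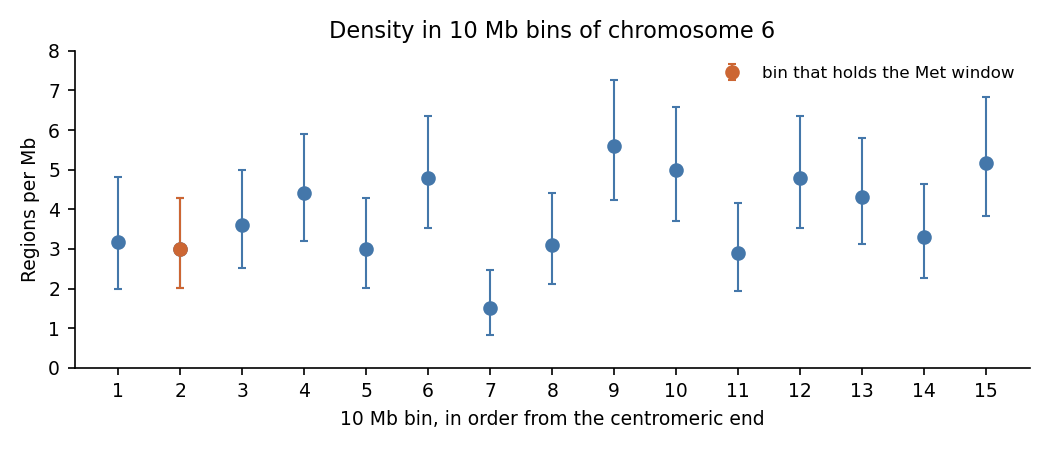
Density of regions (vertical, per Mb, with 95% exact Poisson intervals) in successive 10 Mb bins of chromosome 6 (horizontal, in order along the chromosome), with the bin that holds the Met window in orange. The seventh bin is lowest at 1.5 per Mb and the ninth highest at 5.6 per Mb.

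In bins of 10 Mb the density ranged 3.73-fold. It was lowest from 60 to 70 Mb, with 15 regions or 1.5 per Mb (0.840 to 2.47). It was highest from 80 to 90 Mb, with 56 regions or 5.6 per Mb (4.23 to 7.27). Their intervals do not overlap, but both bins were picked as the extremes by these same counts, so that does not test a difference. The bin that holds Met, from 10 to 20 Mb, was on the sparse side, with 30 regions or 3 per Mb (2.02 to 4.28). The bins from 90 to 100 Mb and from 140 Mb to the last region had 5 and 5.17 per Mb. More of the regions lay in the distal part, with 316 of 564 (56.0%, Clopper-Pearson interval 51.8 to 60.2) in the 50% of the span farther from the centromere. The last 10% of the span held 70 regions (12.4%) and the first 10% held 45 (7.98%), a ratio of 1.56 (exact interval 1.05 to 2.32). That interval assumes independent regions and is too narrow where counts are as uneven as here, and with regions narrower than the median left out it was 0.882 to 2.86, which includes 1. On the other autosomes the last and the first 10% held 13.5% and 8.46%, so a distal excess was not particular to chromosome 6. Their share in the distal 50% is not given here. For the outer 20% at each end of chromosome 6, 122 regions against 95 gave a ratio of 1.28, with an interval of 0.974 to 1.70 that includes 1.

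On chromosome 6, 3 stretches ran over 2 Mb without a region. The longest, 2.44 Mb at chr6:9454016-11896950, lies proximal to the Met window. The second, 2.39 Mb, ran over chr6:42708151-45093231, and the third, 2.24 Mb, over chr6:131612827-133852150. They were followed by stretches of 1.62 Mb (chr6:78092220-79715165) and 1.59 Mb (chr6:62062916-63654592). Empty windows of 1 Mb were few, 7 of 147 (4.76%, Clopper-Pearson interval 1.94 to 9.57). The share was 9.82% on the other autosomes (223 of 2271 windows) and 9.51% on all autosomes, chromosome 6 included. The interval includes 9.51% but ends just below 9.82%. With the windows shifted by 500 kb, chromosome 6 had 5.44% empty (2.38 to 10.4), an interval that reaches past 9.82%. No test of the difference was made. Of the 18 other autosomes, 14 had a larger share of empty windows. Stretches over 1 Mb took up 19.8% of the span of chromosome 6, against 27.2% on the other autosomes, and stretches over 2 Mb took up 4.83% against 8.73%. Whether reads can be placed in these stretches was not tested.

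**Figure D4:**
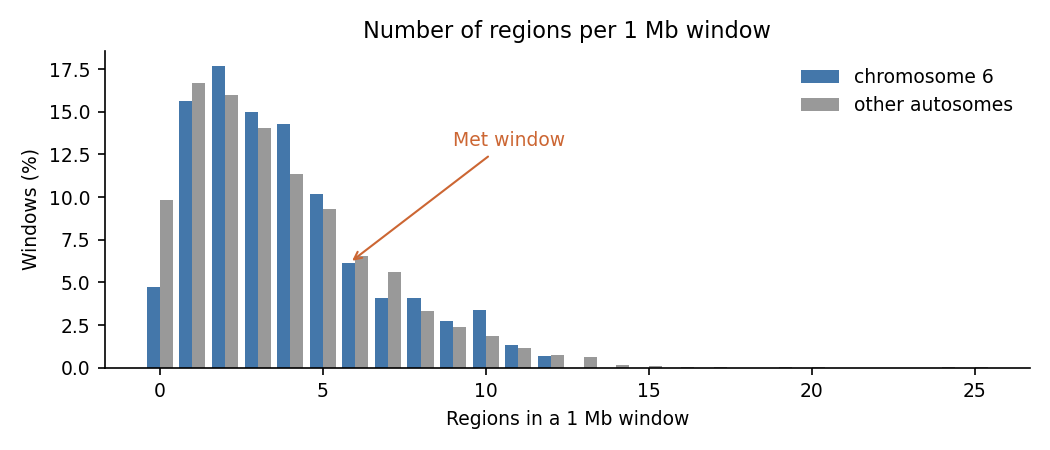
Share of 1 Mb windows (vertical, %) by the number of regions they hold (horizontal), for the 147 windows of chromosome 6 in blue and the 2271 of the other autosomes in grey. Windows without a region make up 4.76% on chromosome 6 and 9.82% elsewhere, and no window of chromosome 6 holds over 12.

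By its overall density chromosome 6 was an ordinary autosome. It held 6.26% of the nuclear regions (5.77 to 6.78) on 5.71% of the span, where the span of a chromosome is taken between its outermost regions. That interval lies above 5.71%, but the nuclear span includes the sparse chromosome X, with 107 regions or 0.667 per Mb. The density of chromosome 6 was 3.85 per Mb (95% exact Poisson interval 3.54 to 4.18). The other autosomes together held 3.69 per Mb (3.61 to 3.77), and 8 of the 18 were denser. Chromosomes 4 (3.88 per Mb) and 9 (3.92 per Mb) were the nearest in density above it. Its counts per 1 Mb window varied less than on many autosomes. The variance of the counts was 1.94 times their mean, within a range of 1.30 to 3.09 on the other autosomes, 11 of which were higher. Neighbouring windows resembled each other little, with a Pearson correlation of 0.186 over 146 pairs of adjacent windows of this 1 list. Of the other 18 autosomes, 16 had a higher one (range 0.0941 to 0.504). Chromosomes 19 (0.186) and 3 (0.188) were nearly equal to chromosome 6, and no interval was computed for these correlations.

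Regions of chromosome 6 seldom lay side by side. Only 1 pair was under 1 kb apart, chr6:83092730-83092955 and chr6:83093558-83093649, with 602 bp between them. These 2 regions are 0.355% of the 564 (Clopper-Pearson interval 0.0430 to 1.28), against 1.82% on the other autosomes (1.55 to 2.13, 152 of 8334 regions) and 1.73% of all nuclear regions. A neighbour under 10 kb away was found for 37 regions of chromosome 6 (6.56%, 4.66 to 8.93), among them the pair in the Met window, and for 943 on the other autosomes (11.3%, 10.6 to 12.0). Neither pair of intervals overlaps, but the pooled intervals do not measure the spread between the other autosomes. Under 10 kb these ran from 4.66% (chromosome 13) to 17.4% (chromosome 11). The intervals also overstate the precision, since close regions come in pairs and are counted together, and no test of the difference was made. Chromosome 6 was not alone in this. Chromosomes 18 and 19 had no pair under 1 kb apart, and chromosomes 13 (4.66%) and 18 (6.51%) had lower shares under 10 kb, at lower densities of 2.75 and 2.50 per Mb. At nearly the same density as chromosome 6, the share under 10 kb was 7.78% on chromosome 4 and 11.4% on chromosome 9. At wider range the spacing was similar, with a neighbour under 100 kb for 57.6% of regions (53.4 to 61.7) against 60.9% elsewhere (59.8 to 61.9), and a median distance to the nearest region of 77744 bp (order-statistic interval 68497 to 88457) against 72094 bp (69578 to 74197).

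**Figure D5:**
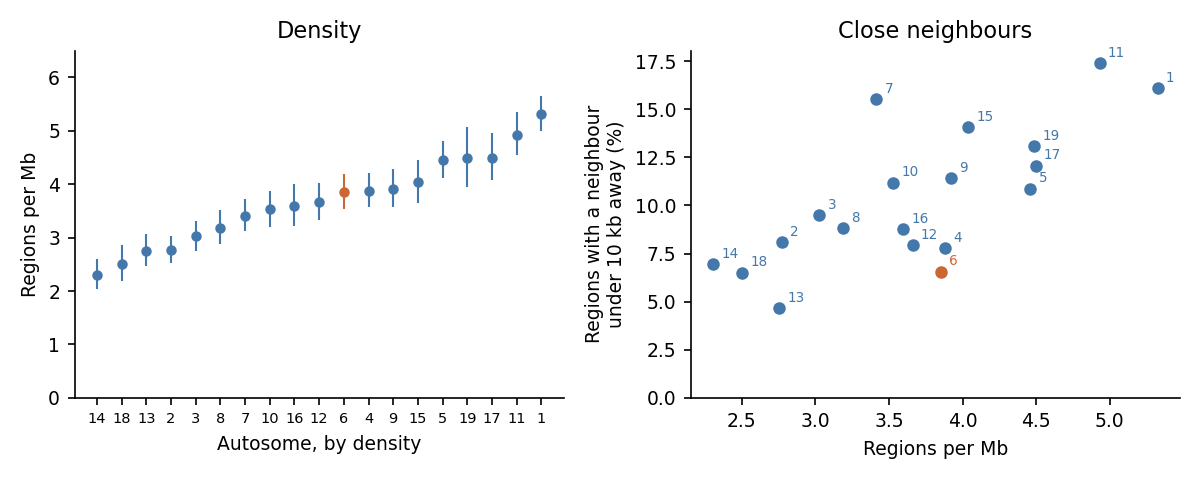
Left, density of regions (vertical, per Mb, with 95% exact Poisson intervals) for each of the 19 autosomes in order of density. Right, share of regions whose nearest neighbour is under 10 kb away (vertical, %) against density (horizontal, per Mb), 1 point per autosome, with chromosome 6 in orange in both; it sits in the middle by density and near the bottom by close neighbours, at 6.56%.

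The widths of the regions were those of the list at large. The median on chromosome 6 was 162.5 bp (order-statistic interval 149 to 171, quartiles 108 and 256.5), against 164 bp on the other autosomes (161 to 167). Regions of 500 bp or more numbered 17 (3.01%), against 3.53% of all nuclear regions. Regions no wider than the 50 bp read length numbered 23 (4.08%), against 2.84% of all nuclear regions, and 2 of the 23 were in the Met window. The 10 widest regions ranged from 562 to 659 bp and were spread from 6.17% to 87.0% of the span, none of them in the Met window. The widest, at chr6:50524885-50525543, spanned 659 bp. The next lay at chr6:84140430-84141060 (631 bp), chr6:36830317-36830945 (629 bp) and chr6:47863086-47863701 (616 bp). Below these, regions of 596 bp lay at chr6:125764524-125765119 and chr6:130403567-130404162, and one of 595 bp at chr6:71493015-71493609. The remaining 3 were chr6:12110543-12111110 (568 bp), chr6:99246442-99247003 (562 bp) and chr6:108210716-108211277 (562 bp).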

How the data were processed

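The authors deposited 1 list of regions on mm9, per the submitters' processing notes. Its name column reads n/a and its score columns hold 0 in every deposited row, so only positions were used. The aligner, the peak caller, its threshold and the use made of each library are not given in the sources used here, and read numbers are unknown. A caller's threshold and read mappability can set where regions are listed. Starts were raised by 1 to count from 1, and width is end minus start as deposited. Regions were assigned to fixed windows by midpoint. Counts carry exact Poisson intervals, shares Clopper-Pearson intervals and medians order-statistic intervals, all at 95%. No test was run, since 1 list has no replicates. The functions were tested on simulated data. The members, windows and rules were chosen with earlier results of these data known. Regions were named by rule: all those from 17 to 18 Mb with the nearest on each side, the 10 widest, all pairs under 1 kb apart, the 5 densest 1 Mb windows (8, with ties), the 5 longest stretches without a region and the densest windows of 100 kb. Genes were named by order, 5 on each side of Met, from RefSeq (GRCm38.p6). No mm9 sequence or annotation was used here, so the planned gene positions and sequences were not analysed. Python 3.11.15, pandas 2.3.3, numpy 2.4.6 and SciPy 1.17.1 were used.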

Additional observations from a re-analysis of the deposited data

How the results depend on the processing

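Of 29 alternative values, 23 stayed within the counting interval of the value reported. That count is a weak check, since merging neighbours under 1 kb changed only 1 pair on chromosome 6. The counting interval of the Met ratio, 0.574 to 3.40, is also wide. The density of the Met window was 1.04 to 2.08 times that of its reference in the 8 alternatives tried (highest in a window of 500 kb with 4 regions), and the counting interval included 1 in 8 of 8, and the share of nuclear regions on chromosome 6 stayed between 6.10% and 6.34%. The ratio of distal to proximal regions ranged from 1.28 to 2.28, the latter when the span was counted from base 1, and its interval included 1 in 2 of 5 alternatives. Keeping only regions at or above the median width gave 20.4% empty windows, a median width of 258 bp and a median distance of 176672 bp to the nearest region. Keeping those of 100 bp or more gave 8.84% empty windows, a median width of 192 bp and a distance of 104447 bp. Windows of 500 kb were empty in 20.1% of cases. The width limits raise the median width by removing narrow regions, and they leave fewer regions to fill windows or to be neighbours. No paired analysis was possible because no group has more than 1 library and per-library values are not in the list used here. The planned look at gene positions and sequence was not made. Without read depth, the number of sites that the caller missed stays unmeasured.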

Other observations

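On chromosome 6, 5 of 564 regions stood with over 1 Mb free on both sides (0.887%, Clopper-Pearson interval 0.288 to 2.06), against 39 of 8334 on the other autosomes (0.468%, 0.333 to 0.639). The intervals overlap. The region at chr6:131612497-131612826 (330 bp) had 1208334 bp before it and 2239324 bp after it. The others lay at chr6:61030634-61030811, chr6:62062700-62062915, chr6:69779718-69779834 and chr6:74189897-74190219, and were 117 to 323 bp wide. They were chosen after their values were seen.

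Widths were also compared between crowded and sparse windows of chromosome 6, and no order was seen beyond the intervals. The 120 regions in windows of 9 or more had a median width of 141.5 bp (order-statistic interval 127 to 177), and the 75 regions in windows of 1 or 2 had 162 bp (143 to 199), with overlapping intervals. The 144 regions in windows of 6 to 8, the Met window among them, had 169.5 bp (138 to 187). Of the 17 regions of 500 bp or more, 8 lay in the distal 50% of the span, where 56.0% of all regions of the chromosome lay.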
